A study of Mus musculus with 6 samples.

Results

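The 7 genes described here encode the inhibitors of cyclin-dependent kinases (CDKs) of the mouse. They were chosen by name: Cdkn1a, Cdkn1b and Cdkn1c of the Cip and Kip group, and Cdkn2a, Cdkn2b, Cdkn2c and Cdkn2d of the Ink4 group. All 7 were found among the 24421 genes counted, and all 7 passed the filter on low counts that left 14789 genes for testing. RNA was from the sciatic nerve of mice, a large nerve of the hind limb, in 3 libraries whose labels name a double cKO of YAP and TAZ and in 3 libraries labelled WT, wild-type mice per the series' design text. YAP and TAZ, encoded by Yap1 and Wwtr1, are the transcriptional co-activators controlled by the Hippo pathway. The sources used here do not say what drives the deletion, which cells and exons it reaches, or the strain and age of the mice.

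CDK inhibitors are proteins that hold back the cell cycle. Those of the Cip and Kip group bind complexes of cyclins with CDK2 and related kinases, and also help to assemble complexes of cyclin D with CDK4 or CDK6. Those of the Ink4 group bind CDK4 and CDK6 alone and keep them from cyclin D, so that the retinoblastoma protein stays unphosphorylated and E2F factors stay silent. In the developing nerve, Schwann cells leave the cell cycle before they wrap axons in myelin, and CDK inhibitors are among the genes used to follow that exit.

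Gene counts came to 24651262 to 32003497 in the cKO libraries and 41270894 to 47044158 in the WT libraries, so every WT library was the deeper. Levels are given as CPM, counts scaled to library size with TMM factors, and differences as log2 fold changes of cKO over WT with their standard error (SE, n = 3 libraries per group) from edgeR's quasi-likelihood test over all genes. A gene was called at a Benjamini-Hochberg adjusted p under 0.05. Yap1 was not called (102.6 to 108.8 CPM in cKO, 120.4 to 123.7 CPM in WT, edgeR adjusted p = 0.145) and Wwtr1 was called higher in the cKO libraries (edgeR adjusted p = 0.0208), so that whole-gene counts of the targets do not check the labels and every direction below rests on the labels alone. Xist, normally made in females (133.9 to 258.0 CPM), and Ddx3y of the Y chromosome were both present in all 6 libraries. Ddx3y stood at 8.93 to 25.7 CPM in cKO and 20.8 to 48.0 CPM in WT, and pooling of nerves is not stated. The Schwann cell markers Sox10, S100b, Erbb3 and Foxd3 were present in every library, and edgeR, DESeq2 and limma-voom each called 0 of these 4, with 0 at an unadjusted p under 0.05 in edgeR. When WT 3 was left out, S100b was called higher and the others were not called. Skeletal muscle transcripts were higher in every cKO library, and WT 3 had the lowest level of genes of dividing cells.

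The CDK inhibitors moved in opposite directions. Cdkn1c, already the most abundant of them, rose 1.98-fold in the cKO libraries, and the sparse Cdkn2a rose 1.81-fold, while Cdkn1a and Cdkn1b each fell 1.36-fold. That made 4 of 7 genes called, 2 higher and 2 lower (edgeR), where 10.9% of all tested genes were called (4.77% higher and 6.17% lower). Cdkn2b, Cdkn2c and Cdkn2d did not pass. For 5 of the 7 genes the cKO and WT libraries did not overlap, against 31.1% of all tested genes; 3 of them lay higher and 2 lower in the cKO libraries, against 15.3% and 15.8% of all tested genes. The median log2 fold change of the 7 genes was -0.04, beside 0.02 for all tested genes.

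**Figure D1:**
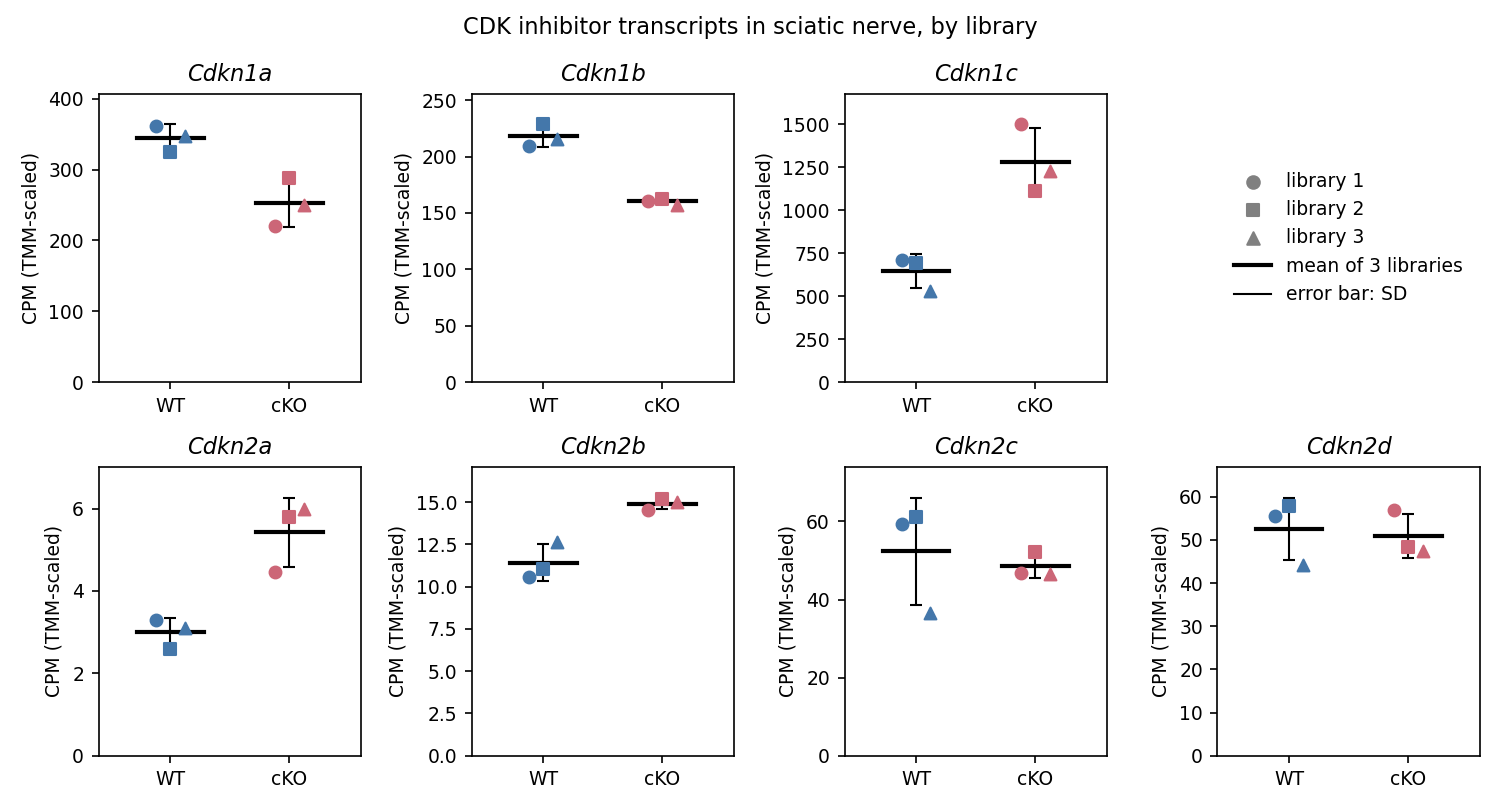
Level of each CDK inhibitor gene (CPM scaled by TMM factors, linear axes from 0) in the WT (blue) and cKO (red) libraries; points are single libraries, thick lines group means and error bars the SD of 3 libraries. The cKO points of Cdkn1c, Cdkn2a and Cdkn2b lie above all WT points, those of Cdkn1a and Cdkn1b lie below them, and those of Cdkn2c and Cdkn2d overlap them.

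Cdkn1c (mm10 chromosome 7, 143458339 to 143461050, minus strand, protein-coding) encodes p57, a Cip and Kip inhibitor transcribed from the maternal allele and, in mouse and rat work, a brake on Schwann cell differentiation. It stood at 1500 CPM in cKO 1, 1113 CPM in cKO 2 and 1228 CPM in cKO 3. In WT 1, 2 and 3 it stood at 711.9, 692.7 and 533.2 CPM. The lowest cKO library was above the highest WT library, and cKO 1 was the highest of all. The log2 fold change was 0.99 ± 0.15, a 1.98-fold rise with a 95% interval of 1.57 to 2.51 (edgeR adjusted p = 0.00431). The call was kept in all 6 fits that left out 1 library, with log2 fold changes from 0.84 without WT 3 to 1.08 without cKO 2. Since RNA came from whole nerve, more cells that express the gene and more of its RNA per cell cannot be told apart, here and for each result below.

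Neither gene next to Cdkn1c on chromosome 7 passed the test. Kcnq1, the gene before it, was sparse, at 1.34 ± 0.431 CPM in cKO and 0.785 ± 0.138 CPM in WT (log2 0.76 ± 0.37, edgeR adjusted p = 0.252). Slc22a18, the gene after it and also expressed from the maternal allele, had an edgeR adjusted p of 0.758 (log2 0.27 ± 0.41). Kcnq1ot1, the noncoding RNA of the paternal allele that silences this imprinted region, was called higher. It stood at 10.98, 9.27 and 11.5 CPM in cKO 1, 2 and 3, whereas WT 1, 2 and 3 had 6.47, 6.32 and 6.15 CPM (log2 0.75 ± 0.15, edgeR adjusted p = 0.0145), a call lost without cKO 3, WT 1 or WT 2 and when the level of muscle markers was added to the fit. Kcnq1ot1 lies inside Kcnq1 on the opposite strand, and with the strand setting unknown, reads of both genes cannot be told apart. Of the 9 tested genes of the region in the list of imprinted neighbours, Kcnq1ot1 was the 1 called and 0 were called lower, with a median log2 fold change of 0.03; 1 had an unadjusted edgeR p under 0.05, and DESeq2 and limma-voom also called 1 higher and 0 lower. Phlda2 and Ascl2 did not pass the filter on low counts.

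Cdkn1a (chromosome 17, 29090976 to 29100727, plus strand) encodes p21, the inhibitor best known as a target of p53. Its levels were 220.7, 288.4 and 249.5 CPM in cKO 1, 2 and 3. They were 361.9, 324.7 and 347.9 CPM in WT 1, 2 and 3, so every cKO library lay below every WT library. The log2 fold change was -0.45 ± 0.11, or 1.36-fold lower (edgeR adjusted p = 0.0346). That call was lost with total counts in place of TMM factors (log2 -0.32, edgeR adjusted p = 0.102) and without cKO 1, cKO 3, WT 1 or WT 2 (edgeR adjusted p = 0.0739, 0.131, 0.0809 and 0.0639), while the direction was the same in each of these fits.

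A pair of starts of Cdkn1a is listed by RefSeq, and the whole-gene counts hold the transcripts of both. The window of the upstream start (GRCm38.p6, chr17:29090729-29091028, plus strand, 250 bases before the start to 50 after it) is shown because it holds the paired core of a p53 element, the letters CATG, any 6 bases and CATG again, at window bases 203 to 216, in capitals here:

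Cdkn1a, upstream start: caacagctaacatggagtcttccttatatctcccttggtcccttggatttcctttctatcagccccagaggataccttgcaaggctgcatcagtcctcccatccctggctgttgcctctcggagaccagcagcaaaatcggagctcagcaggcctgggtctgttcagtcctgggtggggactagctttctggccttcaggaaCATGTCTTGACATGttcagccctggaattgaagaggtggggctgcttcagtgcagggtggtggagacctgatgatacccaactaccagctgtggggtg

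That core was found in 0.712% of the 32851 promoter windows of the same length, searched on both strands, and in no other window of the CDK inhibitor genes. The letters CATTCC of the TEAD motif, through which YAP and TAZ act on DNA, stood in 14.7% of all windows. They stood in 0 of the 9 windows found for 6 of the 7 genes. No window was found for Cdkn1c, so it was not searched for any motif. Such a search describes these letters in these windows only. Trp53cor1, the noncoding RNA gene before Cdkn1a and, in mouse, itself a p53 target, had 4.55 ± 0.986 CPM in cKO and 7.41 ± 0.303 CPM in WT (log2 -0.71 ± 0.20, edgeR adjusted p = 0.0518). It missed the threshold, but it was called lower by DESeq2, by limma-voom and by edgeR without cKO 2. Rab44, on the other side, had an edgeR adjusted p of 0.369 (log2 0.90 ± 0.55).

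Cdkn1b (chromosome 6, 134920401 to 134925513, plus strand) encodes p27, which is controlled largely by destruction of the protein and accumulates in cells at rest. Its values were tight: 160.7, 162.6 and 157.3 CPM in cKO 1, 2 and 3. They were 209.7, 228.5 and 215.3 CPM in WT 1, 2 and 3. The gap between the groups was wider than the spread within them. The log2 fold change was -0.44 ± 0.08, or 1.36-fold lower (edgeR adjusted p = 0.0089), and the call was kept in 5 of 6 fits that left out 1 library and lost without cKO 3 (edgeR adjusted p = 0.057). Its neighbours, the noncoding 2810454H06Rik and the endothelial gene Apold1, were not called (edgeR adjusted p = 0.593 and 0.695).

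The Ink4 genes Cdkn2a (chromosome 4, 89274471 to 89294653, minus strand) and Cdkn2b (89306299 to 89311039, minus strand) lie next to each other. Cdkn2a gives rise to a pair of unrelated proteins from different starts, the CDK inhibitor p16 from the inner start and Arf, which steadies p53, from the outer one. Counts of the whole gene add both together, and the windows of the starts are shown because the counts cannot say which of them was used. Capitals, in the outer window alone, mark TTTCCCGC, 1 of 3 E2F motifs searched on both strands and found in 1.07% of all windows. The other E2F motifs, TTTCGCGC and TTTGGCGC, stood in 0.323% and 0.514% of all windows and in 0 of the 9 windows found, which leave out Cdkn1c:

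Cdkn2a, outer start (Arf), chr4:89294570-89294869, minus strand: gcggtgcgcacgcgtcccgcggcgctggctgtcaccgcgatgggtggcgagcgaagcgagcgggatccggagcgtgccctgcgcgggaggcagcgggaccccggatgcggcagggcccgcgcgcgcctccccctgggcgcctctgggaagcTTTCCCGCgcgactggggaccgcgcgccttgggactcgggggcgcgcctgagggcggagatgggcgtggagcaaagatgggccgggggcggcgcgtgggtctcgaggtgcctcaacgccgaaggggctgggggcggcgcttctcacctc

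Cdkn2a, inner start (p16), chr4:89282143-89282442, minus strand: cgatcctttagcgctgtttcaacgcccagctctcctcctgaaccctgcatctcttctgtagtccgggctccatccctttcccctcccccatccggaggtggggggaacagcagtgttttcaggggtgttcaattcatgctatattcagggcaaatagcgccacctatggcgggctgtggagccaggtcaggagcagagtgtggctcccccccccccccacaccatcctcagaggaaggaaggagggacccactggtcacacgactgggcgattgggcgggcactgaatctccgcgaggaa

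Cdkn2a was sparse, with 104 to 191 reads per library. It stood at 4.46, 5.803 and 5.998 CPM in cKO 1, 2 and 3, whereas WT 1, 2 and 3 had 3.29, 2.60 and 3.10 CPM, with no overlap. Counting error alone gave exact Poisson 95% intervals of 3.77 to 5.24 CPM for cKO 1, the lowest cKO library, and 2.79 to 3.86 CPM for WT 1, the highest WT library, which touch. The log2 fold change was 0.85 ± 0.22, a 1.81-fold rise with a 95% interval of 1.29 to 2.53 (edgeR adjusted p = 0.0359). The call was lost without cKO 2, cKO 3, WT 1 or WT 2 (edgeR adjusted p = 0.114, 0.154, 0.08 and 0.126), and the log2 fold change ranged from 0.76 to 0.97 when each library was left out in turn.

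Cdkn2b encodes p15, an inhibitor that TGF-beta signalling induces in epithelial cells. Its levels were 14.5, 15.2 and 15.0 CPM in cKO 1, 2 and 3. In WT 1, 2 and 3 they were 10.56, 11.02 and 12.65 CPM. The groups did not overlap, but the gene missed the threshold (log2 0.39 ± 0.13, 95% interval of the fold 1.07 to 1.59, edgeR adjusted p = 0.0921). It was called higher without WT 3 (edgeR adjusted p = 0.047) and with total counts (edgeR adjusted p = 0.0282). Mtap, the metabolic gene on the other side of Cdkn2a, stood at 55.1 ± 1.49 CPM in cKO and 63.9 ± 3.42 CPM in WT and was not called (log2 -0.21 ± 0.08, edgeR adjusted p = 0.141).

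Cdkn2c (chromosome 4, 109660876 to 109667189, minus strand) encodes p18, whose level in many cells moves with the cell cycle. It stood at 46.8, 52.2 and 46.7 CPM in cKO 1, 2 and 3, whereas WT 1, 2 and 3 had 59.3, 61.1 and 36.6 CPM. The cKO libraries lay between WT 3 and the other WT libraries. All libraries together gave log2 -0.11 ± 0.18 (edgeR adjusted p = 0.778), with a 95% interval of 0.702 to 1.22 for the fold. Without WT 3 it was called lower (log2 -0.34 ± 0.09, edgeR adjusted p = 0.0326), and the sign turned without WT 2 (log2 0.01) and with total counts (log2 0.01). The 8 markers of dividing cells, summed, had the same low library: 631.3 CPM in WT 3 against 1061 and 1082 CPM in WT 1 and 2 and 965.2 to 989.3 CPM in the cKO libraries. Of those 8 markers, edgeR, DESeq2 and limma-voom each called 0, and 0 had an unadjusted p under 0.05 in edgeR; without WT 3, 1 was called lower. The part of dividing cells in the values of Cdkn2c was not tested.

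Cdkn2d (chromosome 9, 21288410 to 21291407, minus strand) encodes p19Ink4d, the fourth Ink4 inhibitor. It stood at 56.9, 48.4 and 47.5 CPM in cKO 1, 2 and 3, whereas WT 1, 2 and 3 had 55.5, 57.8 and 44.3 CPM. The groups overlapped throughout. The log2 fold change was -0.04 ± 0.12 (edgeR adjusted p = 0.885), with a 95% interval of 0.80 to 1.18 for the fold, and the sign turned without WT 2 (log2 0.03) and with total counts (log2 0.08).

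**Figure D2:**
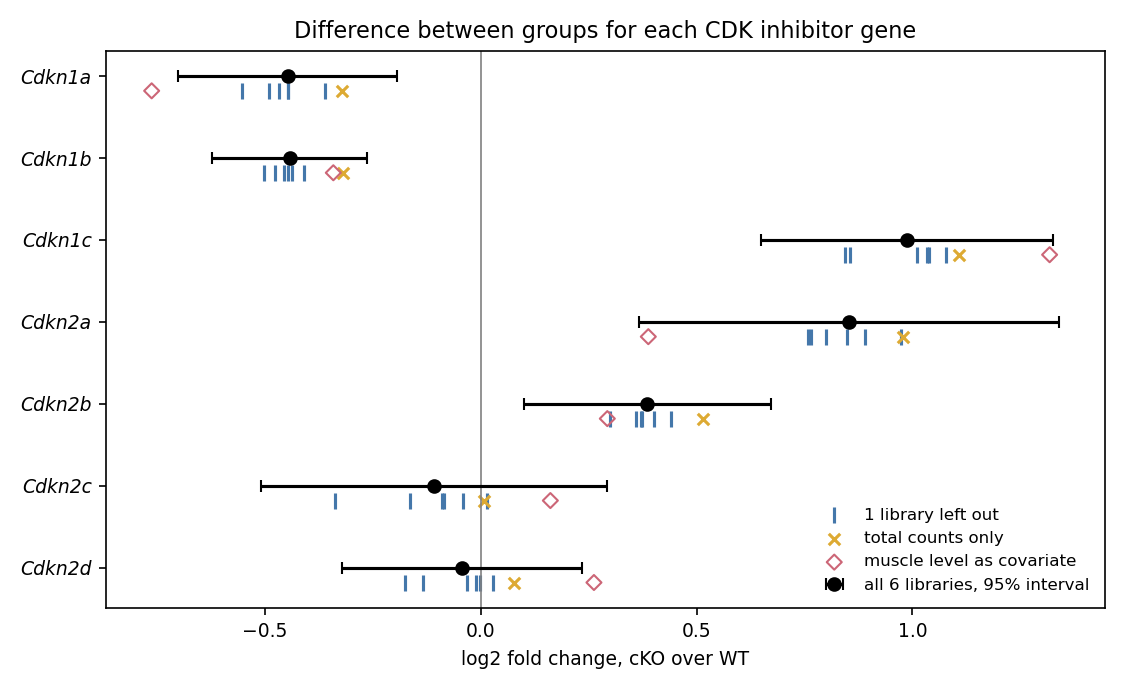
Log2 fold change of cKO over WT for each CDK inhibitor gene: black points and bars are the fit of all 6 libraries with its 95% interval, blue ticks the fits that leave out 1 library, crosses the fit with total counts only, and diamonds the fit with the muscle level as a covariate. Cdkn1c lies between 0.84 and 1.32 in all of these, while Cdkn2c and Cdkn2d lie on both sides of 0.

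Levels of different genes were compared per kilobase of exon, with lengths from GENCODE M21. In the WT libraries the order was Cdkn1c (317 CPM per kb), Cdkn1a (97.1 CPM per kb), Cdkn1b (47.8 CPM per kb), Cdkn2d (33.4 CPM per kb), Cdkn2c (19.5 CPM per kb), Cdkn2b (8.21 CPM per kb) and Cdkn2a (2.56 CPM per kb), and no neighbours in that order overlapped. In the cKO libraries the order was the same, with Cdkn1c at 628 CPM per kb and Cdkn1a at 71.2 CPM per kb. There the ranges of Cdkn1b (34.6 to 35.7 CPM per kb) and Cdkn2d (30.1 to 36.1 CPM per kb) overlapped. Among 23334 genes with a length, Cdkn1c ranked 54th, 67th and 58th per kb in cKO 1, 2 and 3 and 100th, 110th and 166th in WT 1, 2 and 3.

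Cdkn1c was the largest part of the family's total in every library. Of all counts of the 7 genes, it took 74.8%, 66.0% and 70.2% in cKO 1, 2 and 3 and 50.4%, 50.3% and 44.7% in WT 1, 2 and 3. The summed level was 1686 to 2004 CPM in the cKO libraries and 1193 to 1412 CPM in the WT libraries. Without Cdkn1c, the sum of the other 6 genes went the other way, with 504.0 to 572.6 CPM in cKO and 659.8 to 700.2 CPM in WT. Ratios within a library do not depend on the scaling. For every read of Cdkn1b there were 6.85 to 9.34 reads of Cdkn1c in the cKO libraries and 2.48 to 3.40 in the WT libraries. The ratio of Cdkn1a to Cdkn1b overlapped between the groups, at 1.37 to 1.77 in cKO and 1.42 to 1.73 in WT.

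**Figure D3:**
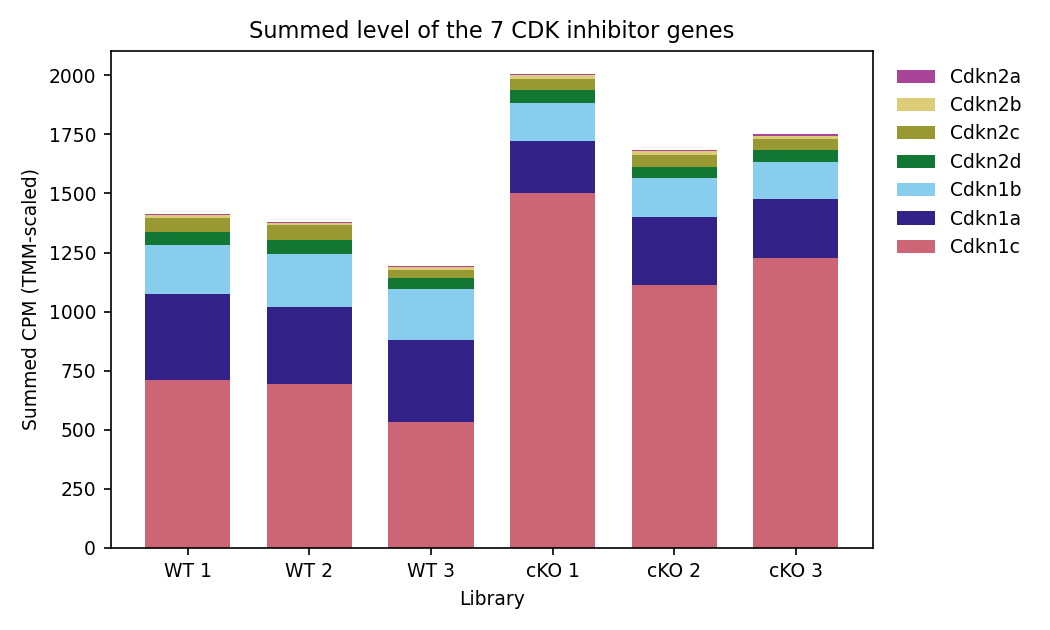
Summed level of the 7 CDK inhibitor genes (CPM scaled by TMM factors) in each library, with each gene's part in its own colour. Cdkn1c, at the base of each bar, makes up 66.0% to 74.8% of counts in the cKO libraries and 44.7% to 50.4% in the WT libraries.

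Skeletal muscle transcripts moved with the groups. Of 14 muscle markers, 12 were called higher in the cKO libraries and 0 lower (edgeR), with Myh8 and Myh3, myosins of young muscle, having the smallest p-values. Their summed level was 5292, 11183 and 6972 CPM in cKO 1, 2 and 3 and 1998, 519.8 and 1889 CPM in WT 1, 2 and 3, and none of the markers was at 0 in all libraries. Forming muscle is known to use Cdkn1a and Cdkn1c. Within the cKO libraries Cdkn1c was lowest in cKO 2, where muscle was highest, and highest in cKO 1, where muscle was lowest. Cdkn1a had the opposite order within that group, that of the muscle level. In WT 1, 2 and 3 Cdkn1a stood at 361.9, 324.7 and 347.9 CPM, again in the order of the muscle level, though it was lower in cKO than in WT. In WT 1, 2 and 3 Cdkn1c stood at 711.9, 692.7 and 533.2 CPM, beside 1998, 519.8 and 1889 CPM of muscle transcripts. For Cdkn2a the order of the WT libraries was that of the muscle level, and cKO 1 had the lowest value of its group for both. The highest Cdkn2a of that group was in cKO 3, however, and the highest muscle level in cKO 2. With 3 libraries per group, these orders are a description only. The part of muscle in these genes was not tested and cannot be told apart from the group.

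With the muscle level as a covariate, edgeR, the tool run for this fit, called 0 of the 7 genes and 77 of all tested genes. Of the 7 genes, 2 had an unadjusted edgeR p under 0.05. Mean log2 CPM of the muscle markers was 7.72 to 8.87 in cKO and 4.37 to 6.39 in WT, with no overlap. The covariate thus ran largely with the group, and the SE of each of the 7 genes was wider than without it. A call lost in this fit, here or in the lists below, cannot tell the group from the muscle level. The value of Cdkn1c was larger in that fit and its error wider (log2 1.32 ± 0.28, edgeR adjusted p = 0.0946), as for Cdkn1a (log2 -0.76 ± 0.21, edgeR adjusted p = 0.193). Cdkn1b came to -0.34 ± 0.17 (edgeR adjusted p = 0.625) and Cdkn2a to 0.39 ± 0.43 (edgeR adjusted p = 0.854). Among other cells of the nerve, the B-cell gene Cd79a was called higher though low (3.73 ± 1.3 CPM in cKO and 0.608 ± 0.167 CPM in WT, edgeR adjusted p = 0.00333). So were the proteases Tpsb2 and Mcpt4, 2 of 5 mast cell markers (summed, 113.9 to 229.6 CPM in cKO and 77.9 to 100.4 CPM in WT). Cspg4 was the 1 called higher of 4 mural markers, of which 2 had a negative log2 fold change. Cidea, with 1 to 8 reads per WT library, was the 1 called of 7 tested adipocyte markers. Summed adipocyte markers were highest in WT 3 (135.6 CPM, against 8.72 and 11.9 CPM in WT 1 and 2). Itga4 was the 1 called lower of 4 perineurial markers, of which 1 had a positive log2 fold change. Of the 6 fits that left out 1 library, Mcpt4 was called in 2 and Itga4 in 1. Of 6 fibroblast, 5 endothelial and 5 macrophage markers, edgeR, DESeq2 and limma-voom each called 0, and the unadjusted p in edgeR was under 0.05 for 1, 2 and 1 of them. Without WT 3, edgeR called the endothelial Pecam1, Cdh5 and Tek, the macrophage Csf1r and Aif1 and the fibroblast Dpt higher. The other markers of these cells stayed uncalled in that fit. Cdh5 was also called with total counts, and Dpt with the replicate number as a block. The part of these cells in the results for the CDK inhibitors was not tested.

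**Figure D4:**
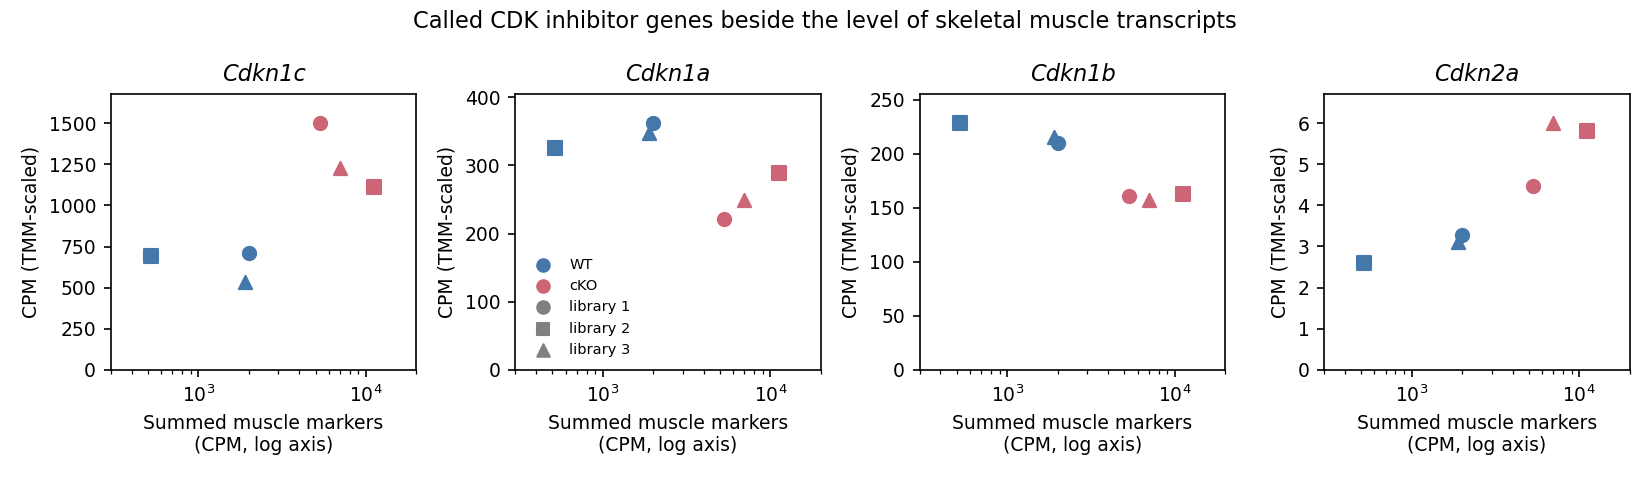
Level of the 4 called CDK inhibitor genes (CPM, linear axis) against the summed level of 14 skeletal muscle markers (CPM, log axis) in the same library, WT in blue and cKO in red. The muscle level of the 3 cKO libraries (5292 to 11183 CPM) does not overlap that of the WT libraries (519.8 to 1998 CPM), and within the cKO group Cdkn1c is lowest where muscle is highest.

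Of the cyclins and kinases that these inhibitors bind, the D-type cyclins rose and no kinase was called. Ccnd2 went from 97.9 ± 19.5 CPM in WT to 247.4 ± 12.4 CPM in cKO (SD, n = 3; log2 1.34 ± 0.14, edgeR adjusted p = 0.000736), Ccnd3 from 149.9 ± 22.5 to 290.7 ± 22.2 CPM (log2 0.96 ± 0.12, edgeR adjusted p = 0.00217) and Ccnd1 from 778.1 ± 175 to 1247 ± 50.8 CPM (log2 0.68 ± 0.16, edgeR adjusted p = 0.0261). Those were the 3 called of 15 tested, and 0 were lower; Ccnd1 was no longer called without WT 1 or any 1 of the cKO libraries, and all 3 lost their call with the muscle covariate. Among 13 genes of the Rb and E2F families, Rb1, whose protein is the substrate of these kinases, was the 1 called, and it fell from 78.9 ± 5.51 to 53.6 ± 4.41 CPM (log2 -0.56 ± 0.10, edgeR adjusted p = 0.00737), a call also lost with the muscle covariate. E2f3 was second by p and did not pass (log2 0.32 ± 0.11, edgeR adjusted p = 0.109).

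Genes of the p53 pathway, to which Cdkn1a belongs, went both ways. Of 21 tested, 3 rose and 2 fell, with a median log2 fold change of 0.12. Sesn1, a stress-response gene, fell 1.34-fold (log2 -0.42 ± 0.08, edgeR adjusted p = 0.0127), and Rrm2b, a subunit of ribonucleotide reductase, fell 1.41-fold (log2 -0.50 ± 0.12). Plk2, a kinase, rose 1.34-fold (log2 0.42 ± 0.08), and Btg2, an antiproliferative gene, rose 1.44-fold (log2 0.53 ± 0.12). The lower calls went to 0 with total counts or without cKO 3, and the higher calls went to 0 without cKO 3, WT 1 or WT 2 and to 1 without cKO 2. With the muscle covariate 0 genes of the pathway were called in either direction. Trp53 itself stood at 72.7 to 85.3 CPM in cKO and 59.5 to 79.3 CPM in WT (log2 0.21 ± 0.12), and Mdm2, which targets p53 for destruction, at a log2 fold change of 0.06 ± 0.10; both were looked at after their values were known.

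Of 14 genes of p27 turnover and FoxO control, Cdc34, the E2 enzyme of the ubiquitin ligase SCF, was the 1 called (62.1 ± 5.4 CPM in cKO, 45.5 ± 3.47 CPM in WT, log2 0.45 ± 0.10, edgeR adjusted p = 0.021), a call lost without cKO 1, cKO 2, WT 1 or WT 2 and with the muscle covariate. Foxo4, a FoxO factor, did not pass (log2 -0.29 ± 0.09, edgeR adjusted p = 0.0907). A list of 22 genes that control the Ink4 locus held Polycomb and TGF-beta genes and other regulators such as Ets1, Id1 and Myc. Of these 22, 0 were called by edgeR, 6 had an unadjusted p under 0.05, and DESeq2 called 3 and limma-voom 1. Smad3, which carries the TGF-beta signal, was nearest (31.4 ± 0.504 CPM in cKO, 24.6 ± 1.71 CPM in WT, edgeR adjusted p = 0.0527), followed by Tgfb3 (edgeR adjusted p = 0.0719).

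Cdkn1c is also counted with a network of imprinted growth genes. Of 14 other tested genes of that network, 4 rose and 0 fell, with a median log2 fold change of 0.19. Zdbf2 stood at 27.9 ± 3.71 CPM in cKO and 13.8 ± 2.17 CPM in WT (log2 1.02 ± 0.15, edgeR adjusted p = 0.00441), and Meg3, a noncoding RNA of the maternal allele, at 278.2 ± 48.3 and 148.9 ± 42.5 CPM (log2 0.90 ± 0.20, edgeR adjusted p = 0.0216). Igf2r rose 1.31-fold and H19 1.43-fold. Zdbf2 was called whichever library was left out, whereas 1 gene was called higher without cKO 3 or without WT 2, and 2 were without cKO 2 or without WT 1. With total counts 6 were called higher, and with the muscle covariate none of Zdbf2, Meg3, Igf2r and H19 was called.

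**Figure D5:**
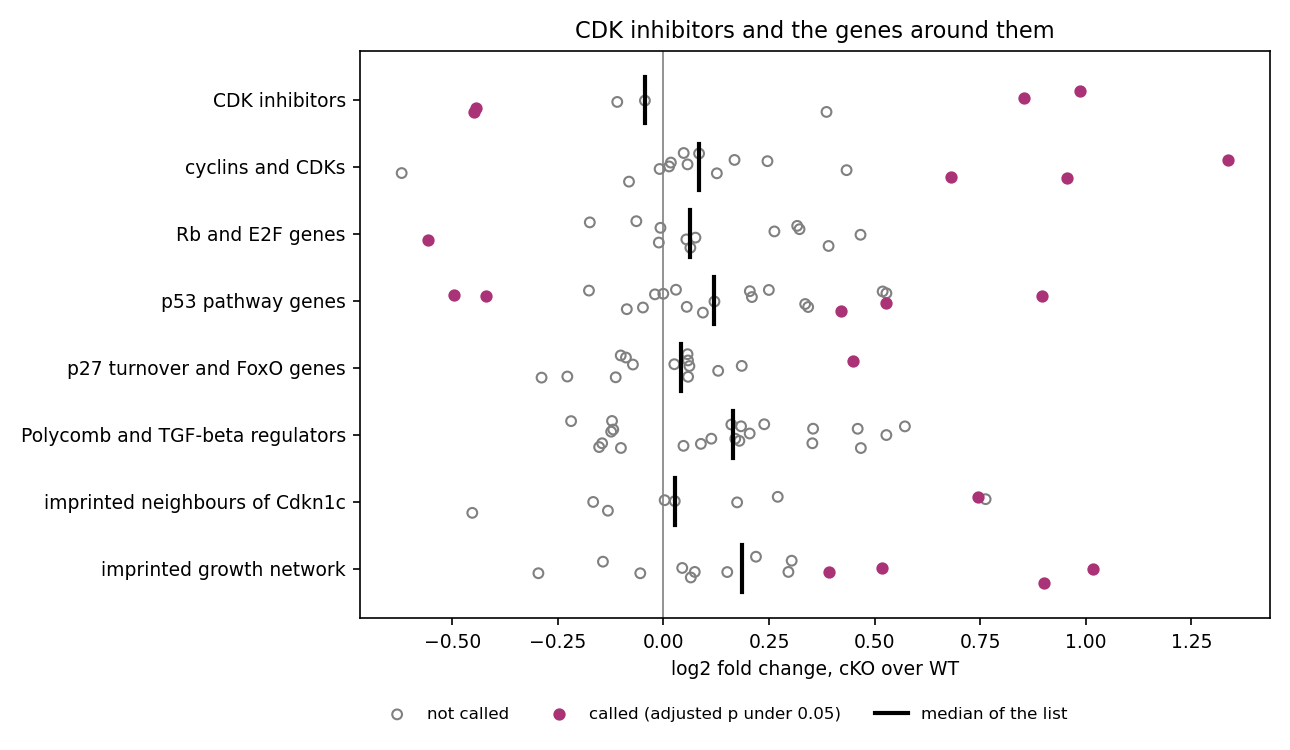
Log2 fold change of cKO over WT for each tested gene of the CDK inhibitor family and of 7 related lists; filled points passed the edgeR test (adjusted p under 0.05), open points did not, and black bars mark list medians. The CDK inhibitors have 2 called genes on each side of 0, and the called cyclins are the 3 D-type cyclins on the right.

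The genes whose log2 CPM followed each inhibitor most closely over the 6 libraries were taken from 10265 genes whose mean log2 CPM was 3 or more. For Cdkn1c they were Ddit4, Rnf166 and Tagln2, with Pearson's r from 0.9959 to 0.9969. For Cdkn1a they were Abca2, Lysmd4 and Dusp15 (r from 0.9962 to 0.9969), and for Cdkn1b Nr2f1, Rai14 and Egr2, the transcription factor of the myelin genes (r from 0.9968 to 0.9973). Cdkn2a was followed by Eif4g3, Ppfibp1 and Lpin1 (r from 0.9922 to 0.9964) and Cdkn2b by Dusp28, Thy1 and Il4ra (r from 0.9889 to 0.9949). Cdkn2c was followed by Stx18, Atad2 and Zbed4 (r from 0.992 to 0.9953) and Cdkn2d by Scamp4, Bub3 and Kat8 (r from 0.9786 to 0.9869). With so many genes and 6 libraries that differ by group, such values describe these libraries only.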

How the data were processed

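The study measured RNA by sequencing of TruSeq libraries from sciatic nerve, per the labels' protocols. Each deposited file lists raw counts of reads by gene symbol, not normalized by the authors. TopHat2 2.0.13, HTSeq (no version) and mm10 are named in the submitters' processing notes. Annotation and strand setting were not given in the sources used here, so antisense reads cannot be told apart; 0 of the 7 genes overlap another counted gene in GENCODE M21 (GRCm38, the assembly of mm10). HTSeq's closing lines (reads of no gene 12.07% to 14.26%, ambiguous reads 1.635% to 2.818% of each file) entered neither library sizes nor tests.

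Genes were filtered with filterByExpr (minimum count 10) and tested on all 6 libraries in edgeR 4.0.16 (R 4.3.3) with TMM factors and group as the only term. The SE is the log2 fold change over the square root of F. A level of 3 counts equals 0.0638 to 0.122 CPM, counting error only. P-values measure the spread between these samples. The design text gives separate mice, but Xist and Ddx3y were both present in every library and pooling is not stated. How many mice each library holds is thus not known. No libraries of a group agreed within sampling noise (chi-square over its degrees of freedom 13.4 or more). The fit was tested on simulated data with known changes. It called 12 of 66 genes with a log2 change of 0.5, 38 of 64 with 1 and 60 of 65 with 2. Of 14576 unchanged genes it called 6. A gene not called here may thus still differ, above all by a small amount.

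Alternatives were DESeq2 size factors, upper-quartile factors, total counts, no filter, 50 counts in 3 libraries, DESeq2 1.42.0, limma-voom (limma 3.58.1), thinning to the shallowest library, the replicate number as a block, the mean muscle marker level as a covariate, and leaving out each library. The members, lists and rules were chosen with earlier results of these data known. Besides the 7 genes, the text names up to 4 called genes per list by p (up to 2 for cell markers; the 2 with the smallest p where fewer were called), the genes beside called members and the 3 closest patterns per member. Promoter windows are from RefSeq, GRCm38.p6. Some marker genes are not reported here.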

Additional observations from a re-analysis of the deposited data

How the results depend on the processing

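For all 7 genes, direction and side of the threshold were the same with DESeq2 size factors, upper-quartile factors, no filter, the filter of 50 counts, DESeq2, limma-voom and thinning. Total counts moved the median of all genes from 0.02 to 0.15; Cdkn1a lost its call (-0.32), Cdkn2b gained one (0.51), Cdkn2c (0.008) and Cdkn2d (0.076) changed sign, genes called higher came to 1273 and lower to 606, and 1 member was called lower. The muscle covariate ended the calls of Cdkn1a (-0.76), Cdkn1b (-0.34), Cdkn1c (1.32) and Cdkn2a (0.39), turned Cdkn2c (0.16) and Cdkn2d (0.26), and left 77 genes called (8 higher, 69 lower) and 0 members, 0 higher and 0 lower. The muscle level did not overlap between the groups, so the covariate fit cannot tell the group from the muscle level. The cause of these changes was not tested.

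Same-numbered libraries did not deviate together (r = -0.207, -0.122 and 0.072 for numbers 1, 2 and 3), so the numbers were not taken as pairs. With the replicate number as a block, 1104 genes were called, 461 of them higher; 2 members were called, 1 higher and 1 lower, and Cdkn1a (-0.46, edgeR adjusted p = 0.0825) and Cdkn2a (0.85, edgeR adjusted p = 0.101) were not. Of the related genes named, Kcnq1ot1, Meg3, H19, Cdc34, Btg2 and Rrm2b also lost their calls under the block. So did the mast cell marker Mcpt4 and, among the closest patterns, Eif4g3 and Lpin1.

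Leaving out each library gave log2 fold changes of -0.55 to -0.36 for Cdkn1a, -0.50 to -0.41 for Cdkn1b, 0.84 to 1.08 for Cdkn1c, 0.76 to 0.97 for Cdkn2a, 0.30 to 0.44 for Cdkn2b, -0.34 to 0.01 for Cdkn2c and -0.18 to 0.03 for Cdkn2d. Without WT 2, Cdkn2c (0.014) and Cdkn2d (0.028) changed sign. Calls ranged from 735 to 2195 for all genes (276 to 1075 higher, 459 to 1120 lower) and from 1 without cKO 3 to 6 without WT 3 among the members (1 to 3 higher, 0 to 3 lower). The 104 to 191 reads of Cdkn2a limit its precision.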

Other observations

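Other genes carry the Cdkn name without being CDK inhibitors of these groups, and they were looked at after the values were known. Cdkn3, a phosphatase that acts on CDKs, stood at 10.1 ± 1.28 CPM in cKO and 9.82 ± 1.48 CPM in WT (log2 0.05 ± 0.17, edgeR adjusted p = 0.915). Cdkn2aip, whose protein binds Arf, stood at 14.0 ± 2.46 and 15.3 ± 0.824 CPM (log2 -0.13 ± 0.15, edgeR adjusted p = 0.663), and Cdkn2aipnl at 55.9 ± 4.44 and 52.9 ± 6.45 CPM (log2 0.08 ± 0.11, edgeR adjusted p = 0.733).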
